A study of Mus musculus with 16 samples.

Results

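Prohormone convertases and granins are the proteins that load, cut and trim neuropeptides inside dense-core vesicles. The 10 genes followed here were chosen by symbol and are Pcsk1, Pcsk2, Cpe, Pcsk1n, Scg5, Chga, Chgb, Scg2, Scg3 and Vgf, of 24972 genes in the files. All 10 were listed in every library and all 10 passed the filter on low values in each comparison. The data are 16 bulk RNA-seq libraries from microdissected dorsal hippocampus of 3 trained and 3 untrained adult mice, all ArcCreERT2::eYFPflx on a C57BL/6 background. In this line a drug-inducible Cre driven from the Arc gene switches on a fluorescent reporter, but the libraries were made from whole tissue pieces and not from tagged cells. Trained mice learned active place avoidance on a rotating arena with a shock zone, and untrained mice walked on the same arena with the shock always off. There were 3 libraries of each training group for CA1. For CA3 and for the dentate gyrus (DG) there were 3 trained libraries but 2 untrained ones. Tissue pieces of an animal were pooled by subregion after a retention test. The study lists both sexes in each training group, with more females among the trained and more males among the untrained mice.

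In the regulated secretory pathway, Pcsk1 and Pcsk2 cut precursors at pairs of basic residues, and Cpe (carboxypeptidase E) trims the basic residues that the cut leaves behind. Pcsk1n encodes proSAAS, an inhibitor of the Pcsk1 enzyme, and Scg5 encodes 7B2, which Pcsk2 needs to mature and which can also inhibit it. The granins Chga, Chgb, Scg2 and Scg3 are acidic proteins that pack and sort vesicle cargo, and Vgf is a precursor of several peptides that nerve growth factors and neuronal activity are known to induce. In hippocampal neurons these vesicles carry neuropeptides and neurotrophins. On GRCm38, the members that passed a training comparison lie at chr2:143546156-143816285 (Pcsk2, plus strand), chr8:64592542-64693054 (Cpe, minus), chrX:7919822-7924410 (Pcsk1n, plus), chr2:132781278-132795079 (Chgb, plus), chr1:79434669-79440120 (Scg2, minus) and chr9:75643189-75684056 (Scg3, minus). All 10 are annotated as protein-coding, and values are for the whole gene.

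RefSeq gives a promoter window of 300 bases, from 250 before to 50 after the transcript start, for 8 of the 10 genes on GRCm38.p6. Cpe and Vgf were not matched. The cAMP response element (CRE), the letters TGACGTCA, was present in 3 of the 8 windows, those of Pcsk1, Scg2 and Chgb, and in 1.79% of 32851 mouse promoters. It reads the same on both strands. The 30 bases around it are shown because this motif is shared by the windows of a convertase and a pair of granins, and the capitals mark the CRE. They lie on chr13:75089768-75089797 on the plus strand, chr1:79440076-79440105 on the minus strand and chr2:132781559-132781588 on the plus strand. The CRE begins at positions -78, -68 and -72 from the RefSeq start. The gene spans given above come from another annotation, and for Scg2 and Chgb they include these stretches.
Pcsk1: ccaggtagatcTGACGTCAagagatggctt
Scg2: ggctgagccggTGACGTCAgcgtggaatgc
Chgb: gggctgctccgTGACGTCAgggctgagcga
The shorter core TGACG, or its reverse CGTCA, lies within every CRE and was found in 7 of the 8 windows and in 20.8% of all promoters. The binding letters of EGR factors, GCGGGGGCG or its reverse CGCCCCCGC, were in the windows of Pcsk2 and Chgb and in 2.91% of all promoters. Pcsk1n was the only member of the 8 with no match to any of these motifs. Its 250 bases before the start, chrX:7919572-7919821 on the plus strand, are shown because it had the widest training difference of the group, and no letter in them is marked.
Pcsk1n: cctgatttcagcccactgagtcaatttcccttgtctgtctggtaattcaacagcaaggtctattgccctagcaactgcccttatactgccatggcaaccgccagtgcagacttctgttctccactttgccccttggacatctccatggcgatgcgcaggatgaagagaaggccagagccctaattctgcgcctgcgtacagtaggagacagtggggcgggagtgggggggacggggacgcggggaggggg
A match in these letters is a description and was not tested against any measurement.

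Values are normalized estimated counts, as the authors deposited them. Summed over a library they come to 7607326 to 7984931, so the depth of each library is unknown. Several features of the libraries move with the groups. Between 7567 and 9759 genes were listed at 0 in 7 libraries, namely both untrained DG libraries, all trained CA1 libraries and replicates 1 and 2 of trained CA3, and between 3124 and 5944 in the other 9. Xist was at 7601 or more in all 9 trained libraries and in the library labelled CA3 untrained replicate 1 (10590), and at 52.4 or less in the other 6. The Y-linked Ddx3y was between 448.4 and 552.8 in those 6, but was also at 201.4 in CA3 untrained replicate 1 and at 255.2 in DG trained replicate 3, beside their high Xist. It was at 70.9 in CA1 trained replicate 1, 100.6 in CA1 trained replicate 3 and 92.9 in CA3 trained replicate 3, and between 1.66 and 12.9 in the other 5 trained libraries. Trained replicate 3 thus carried both kinds of transcript in all 3 subregions. CA3 untrained replicate 1 does not match the untrained CA1 and DG libraries of the same number, which had Xist at 26.1 and 25.5. No trained library had a low Xist, although the trained group is listed as of both sexes. The subregion labels were also only partly borne out. The 6 CA1 pyramidal markers summed to 3590 to 5709 in untrained CA1, but to 1898 to 2352 in trained CA1, against 1598 to 2384 in DG. The 10 dentate granule markers summed to 12670 to 16000 in DG, to 11750 to 14400 in CA1 and to 10870 to 18040 in CA3, where both untrained libraries were at 14720 or more. The 6 CA3 pyramidal markers summed to 1952 to 2962 in CA3 and to 2188 to 2507 in DG, so neither list set these subregions apart. Subregions are therefore called by their labels. In bulk tissue, fewer cells of a type and less RNA per cell cannot be told apart.

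Cpe was by far the most abundant transcript of the group, and Pcsk1 the least. The 10 genes together made up 0.255% to 0.34% of a library's summed values, and Cpe alone 47.6% of that. Per kilobase of transcript, the mean level over the 16 libraries was 5225 ± 488 (SD, n = 16) for Cpe and 1607 ± 319 for Chgb. Scg2 (644 ± 73.5), Scg3 (618 ± 72.0) and Pcsk2 (581 ± 47.9) followed close together. Scg2 was above Scg3 in 10 of 16 libraries, and Scg3 above Pcsk2 in 9, so these neighbours were not separated. Scg5 (459 ± 65.1), Chga (230 ± 33.0), Vgf (166 ± 26.6) and Pcsk1n (154 ± 78.8) came next in level per kilobase. Vgf was above Pcsk1n in 9 of 16 libraries. Pcsk1, at 25.4 ± 6.88 per kilobase, was below every other member in all 16 libraries, and Cpe was 206 times its level. Among 14484 genes with a known length, Cpe stood at the 99.9th percentile of level per kilobase and Pcsk1 at the 32.9th. The coefficient of variation over libraries was 51.1% for Pcsk1n, against 8.26% for Pcsk2 and 9.34% for Cpe.

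**Figure D1:**
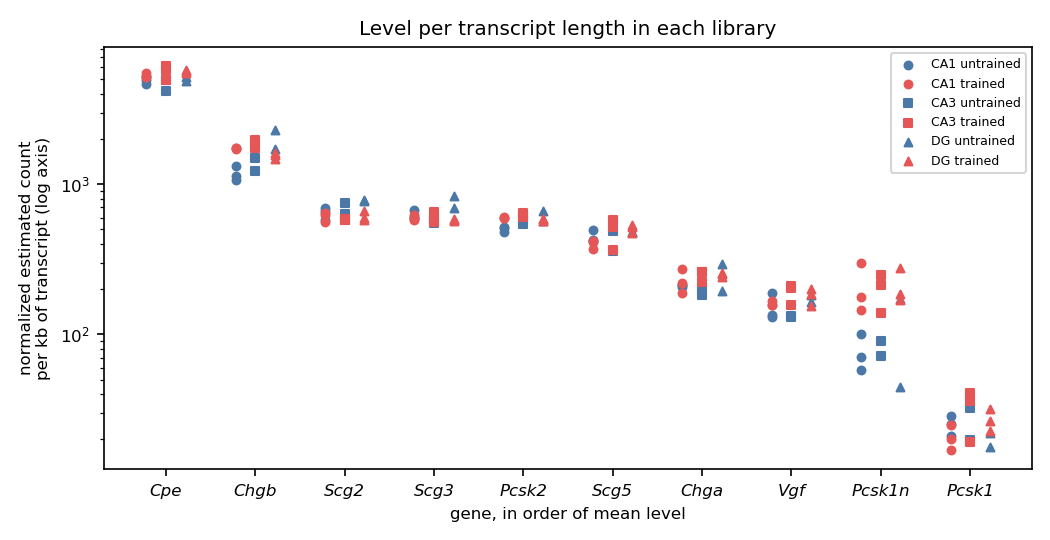
Level per kilobase of transcript (log axis) of the 10 genes in each of the 16 libraries, with the subregion as the marker shape and training as the colour. Cpe lies at the top and Pcsk1 at the bottom in all libraries, and Pcsk1n spreads from 44.6 to 299.6 per kilobase.

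None of the 10 genes differed between subregions by an adjusted p-value under 0.05. The test assumed the same subregion difference in both training groups. The members were compared between subregions in all 16 libraries with training as a term, using limma on log2(value + 2) with Benjamini-Hochberg adjustment over all genes tested. Of 14673 genes tested, 0.211% passed between CA1 and CA3, 1.95% between CA1 and DG and 0% between CA3 and DG. An unadjusted p under 0.05 was reached by 1 member between CA1 and CA3 (Pcsk2, where 8.72% of genes reached it), by 1 between CA1 and DG (Scg5, 17.1% of genes) and by 0 between CA3 and DG (4.87% of genes). All 10 members had a log2 difference below 0 in CA1 against DG, with a median of -0.13, against -0.01 for all genes. The size was greatest for Chgb, at -0.24 (95% interval -0.58 to 0.11), and Scg5, at -0.24 (-0.46 to -0.01). For Chgb this averages opposite directions. In untrained libraries Chgb was at 2923 to 3637 in CA1 and 4694 to 6249 in DG. In trained libraries it was at 4689 to 4788 and 4039 to 4431. For Cpe the difference between CA1 and CA3 was 0.01 on the log2 scale, with an interval of -0.10 to 0.12. For Pcsk1n the intervals were wide, from -0.74 to 0.67 in CA1 against CA3, so a difference of either sign was not detectable here.

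**Figure D2:**
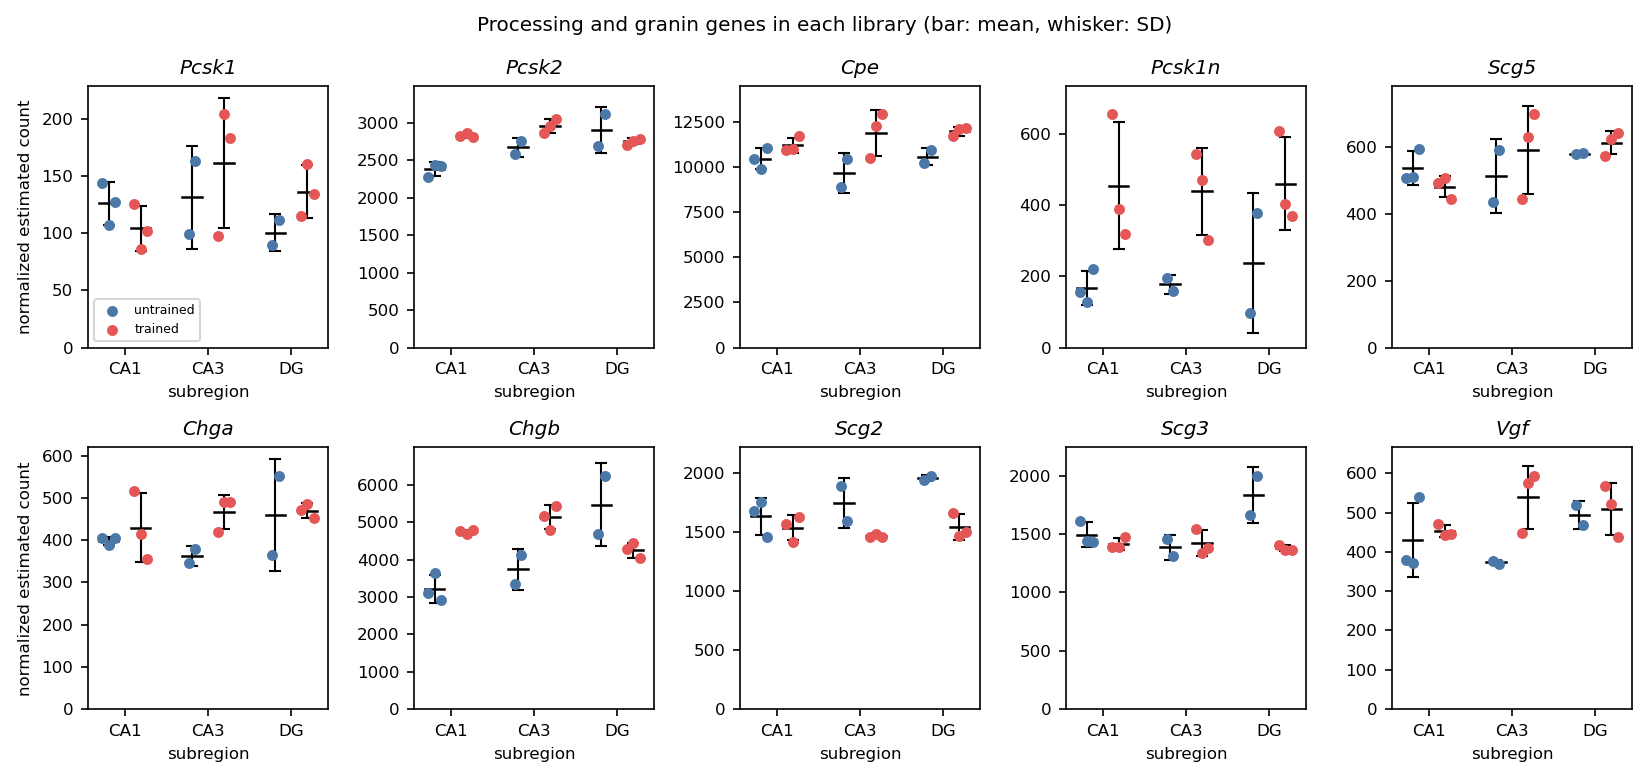
Normalized estimated count of each of the 10 genes in every library, by subregion and training, with each axis starting at 0. Points are libraries, bars are means and whiskers are SD (n = 2 or 3). Pcsk1n lies higher in trained than untrained CA1 and CA3, and Chgb lies higher in trained CA1 and CA3 but lower in trained DG.

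Trained and untrained libraries were then compared within each subregion and over all subregions with the subregion as a term. A gene is said to have passed, or to have risen or fallen, where its adjusted p was under 0.05. In CA1, 2 of 10 members passed (Pcsk2 and Chgb, both higher), where 5.23% of 13588 genes did. In CA3, 0 of 10 passed with limma, where 0.852% of 13848 genes did, and 6 of 10 had an unadjusted p under 0.05, against 15.8% of genes. In DG, 2 of 10 passed (Scg2 and Scg3, both lower), where 3.39% of 13935 genes did. Over all subregions 3 of 10 passed (Pcsk1n and Cpe higher, Scg2 lower), where 10.3% of 14673 genes did. An unadjusted p under 0.05 was reached by 4 members in CA1 (18.9% of genes) and by 5 in DG (19.5%). The CA3 count depended on single libraries, as did the count over all genes, which was 118. The members that passed were 4 (Cpe, Chga, Chgb and Vgf, of 680 genes in all) without trained replicate 1, 1 (Pcsk1n, of 128) without trained replicate 3 and 1 (Chgb, of 57) without untrained replicate 2. None passed without trained replicate 2 (of 7) or untrained replicate 1 (of 23). As in DG, each fit without an untrained CA3 replicate rests on a lone untrained library, assumed to vary like the trained ones. The median log2 difference of the members was 0.09 in CA1, 0.28 in CA3, 0.05 in DG and 0.14 over all subregions, while the median of all genes was within 0.01 of 0 in each.

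Counts of members whose groups did not overlap were also set against all genes. In CA1, 3 members were higher in every trained library (12.9% of genes) and 1 was lower (11.1%). In CA3, 6 were higher (17.2%) and 1, Scg2, was lower (16.7%). In DG, 2 were higher (17.5%) and 3 were lower (18.2%).

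Among the enzymes, Pcsk2, the convertase that finishes many neuropeptides, rose in trained CA1. Its values were 2271, 2438 and 2422 in the untrained and 2821, 2865 and 2802 in the trained CA1 libraries. The trained libraries all lay above the untrained ones, and the spread within the trained group was small. The mean was 2829 ± 32.1 against 2377 ± 92.3 (SD, n = 3 each), a log2 difference of 0.25 (SE 0.050, limma adjusted p = 0.00447). Without untrained replicate 1 the limma adjusted p was 0.0554. In CA3 the Pcsk2 values were 2580 and 2759 in untrained and 2865, 2951 and 3051 in trained libraries, without overlap, and the log2 difference of 0.15 did not pass (limma adjusted p = 0.356). In DG they were 2685 and 3114 against 2704, 2761 and 2785, which overlap, with a log2 difference of -0.07 (limma adjusted p = 0.608).

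Pcsk1, the convertase that acts earlier on precursors, did not pass in any training comparison. It was at 144.2, 106.8 and 127.4 in untrained and 125.3, 85.9 and 101.5 in trained CA1, and these ranges overlap. In CA3 it lay between 97.1 and 204.1 over both groups, which overlap. In DG the values were 89.2 and 111.8 in untrained and 114.8, 160.4 and 133.9 in trained libraries. The DG groups did not overlap, and the log2 difference was 0.43 (SE 0.177, limma adjusted p = 0.192). Leaving out an untrained replicate leaves a lone untrained DG library, assumed to vary like the trained ones. The difference was then 0.59 without replicate 3 (limma adjusted p = 0.0452) and 0.27 without replicate 1 (0.468).

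Cpe, which trims the cut peptides, was higher on average with training in each subregion. In CA1 it was at 10430, 9863 and 11060 in untrained and 10920, 11010 and 11680 in trained libraries, which overlap. In CA3 the untrained values of Cpe were 8875 and 10420 and the trained ones 10470, 12260 and 12920. In DG they were 10220 and 10920 against 11690, 12070 and 12170. All trained CA3 and DG libraries were above the untrained libraries of their subregion, but by a narrow margin in CA3. The log2 differences of Cpe in CA1, CA3 and DG were 0.10, 0.30 and 0.18 (limma adjusted p = 0.222, 0.203 and 0.06). Without untrained replicate 3 the limma adjusted p was 0.0324 in CA1 and 0.0124 in DG, where it leaves a lone untrained library, and without trained replicate 1 it was 0.0264 in CA3. Without untrained replicate 1 the difference was 0.18 in CA3 and 0.13 in DG (limma adjusted p = 0.779 and 0.211). With the term for many genes at 0 described further on, the log2 differences of Cpe were 0.29 in CA1, 0.43 in CA3, where it passed, and -0.0097 in DG (limma adjusted p = 0.478, 0.0176 and 0.996). Over all subregions Cpe rose by 0.19 on the log2 scale (SE 0.046, limma adjusted p = 0.0102). With a score of Xist and 4 Y-linked genes as a covariate it was 0.42 and did not pass (limma adjusted p = 0.0771).

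Of the proteins that bind the convertases, Pcsk1n, the proSAAS gene on chromosome X, had the largest fold of the group. In CA1 its values were 156.3, 127.8 and 220.8 in untrained and 657.1, 389.7 and 319.8 in trained libraries. In CA3 they were 196.8 and 158.7 against 544.3, 470.9 and 304.0. In DG they were 97.9 and 377.8 against 609.8, 404.6 and 369.6. Every trained library of CA1 and CA3 was above every untrained one there, whereas in DG untrained replicate 3 stood above trained replicate 3. The trained mean was 2.71 times the untrained mean in CA1, 2.47 times in CA3 and 1.94 times in DG. The DG value depended on which untrained library was kept. Its log2 difference was 0.25 without untrained replicate 1 and 2.18 without untrained replicate 3 (limma adjusted p = 0.823 and 0.0546). Within single subregions none of these passed, with log2 differences of 1.39 (SE 0.367), 1.26 (SE 0.265) and 1.21 (SE 0.751). Their adjusted p-values from limma were 0.147, 0.12 and 0.505. With the term for many genes at 0 described further on they were 0.66, 0.78 and 1.95 (limma adjusted p = 0.928, 0.749 and 0.771). In CA1 the limma adjusted p was 0.00453 without robust estimation and 0.0212 without trained replicate 1, and in CA3 it was 0.000372 without trained replicate 3. Over all subregions Pcsk1n rose by 1.30 on the log2 scale (SE 0.271, limma adjusted p = 0.0101).

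Pcsk1n moved with the sex-linked transcripts as well as with training. Its Pearson correlation with Xist over the 16 libraries, of log2 values, was 0.768, a description of libraries that share animals. The library labelled CA3 untrained replicate 1 had Xist at 10590, Ddx3y at 201.4 and Pcsk1n at 196.8. Pcsk1n in the 9 trained libraries ranged from 304.0 to 657.1. Without that untrained library the log2 difference over all subregions was 1.34 (limma adjusted p = 0.0244). With the score of Xist and Y-linked genes as a covariate it was 0.69 (limma adjusted p = 0.759). Training and these transcripts separate nearly the same libraries and cannot be told apart. Within CA1 and within DG, Xist splits the libraries exactly as training does. Training differences there, as of Pcsk2 and Chgb in CA1 or Scg2 and Scg3 in DG, cannot be told apart from it either.

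Scg5, the gene of the Pcsk2 chaperone 7B2, passed in no training comparison. It was lower in each trained CA1 library (494.7, 507.2 and 446.0) than in each untrained one (508.6, 510.1 and 596.1). The log2 difference in CA1 was -0.15 (SE 0.086, limma adjusted p = 0.352). In CA3 and DG the Scg5 groups overlapped, with log2 differences of 0.19 and 0.08 (limma adjusted p = 0.743 and 0.669). The sign of Scg5 was not stable. With the term for many genes at 0 it turned in CA1 (0.25, limma adjusted p = 0.852) and DG (-0.33, 0.862), and in CA3 it ran from -0.03 without untrained replicate 1 to 0.41 without untrained replicate 2 (0.986 and 0.537). The CA1 difference was -0.08 without untrained replicate 3 (0.675).

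**Figure D3:**
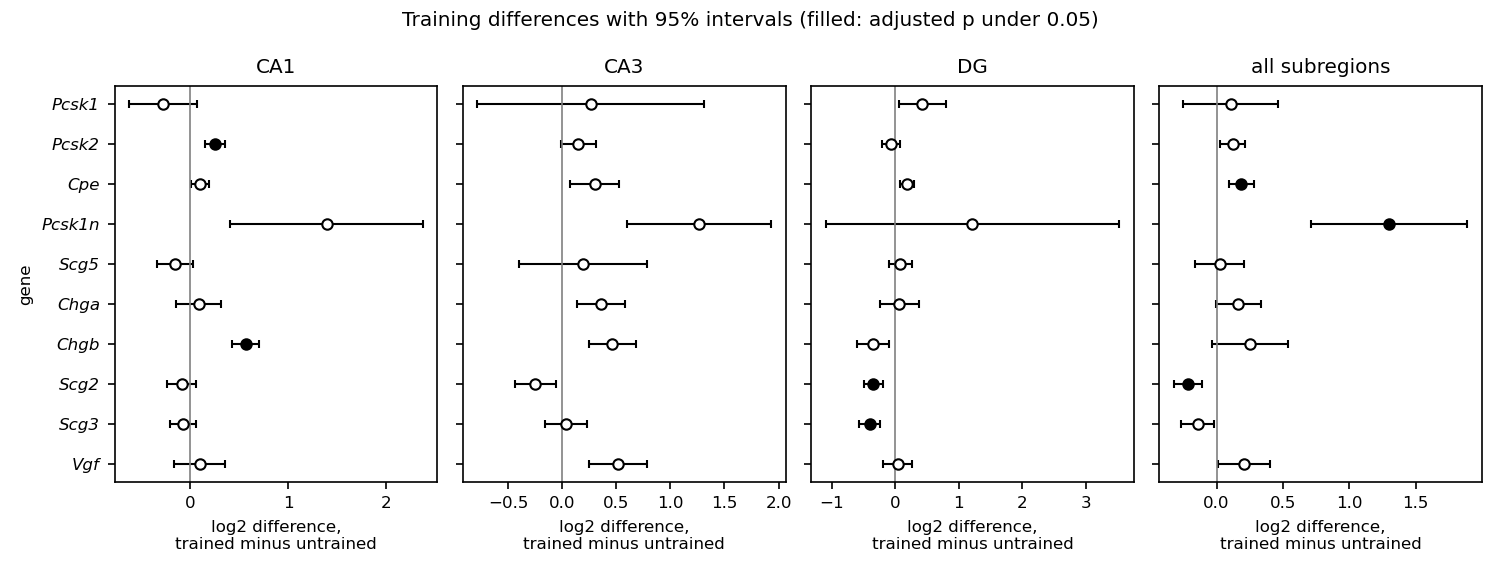
Log2 difference between trained and untrained libraries, with 95% intervals from limma, for the 10 genes in CA1, CA3, DG and all subregions together. The horizontal scales differ between panels. Filled points have an adjusted p under 0.05, and these are Pcsk2 and Chgb in CA1, Scg2 and Scg3 in DG, and Cpe, Pcsk1n and Scg2 over all subregions.

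Among the granins, Chgb (chromogranin B) rose in trained CA1, and its values lay the opposite way in DG. In CA1 it was at 3099, 3637 and 2923 in untrained and 4768, 4689 and 4788 in trained libraries. In CA3 it was at 3348 and 4125 against 5169, 4793 and 5432. In DG it was at 4694 and 6249 against 4286, 4431 and 4039. No groups overlapped, and the trained libraries were the higher ones in CA1 and CA3 and the lower ones in DG. In CA1 the mean was 4748 ± 52.3 against 3220 ± 372 (SD, n = 3 each), 1.47 times as high, a log2 difference of 0.57 (SE 0.065, limma adjusted p = 0.000112). In CA3 the log2 difference was 0.46 (SE 0.097, limma adjusted p = 0.0594). It passed without trained replicate 1 (limma adjusted p = 0.0414), but not without trained replicate 2 or 3 (0.248 and 0.111). With a lone untrained library it was 0.61 without untrained replicate 2 and 0.31 without untrained replicate 1. In DG it was -0.35 (SE 0.111, limma adjusted p = 0.138), and it depended on which untrained library stood alone for its group. It was -0.56 (limma adjusted p = 5.52e-06) without untrained replicate 1 and -0.14 (0.179) without untrained replicate 3.

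The training differences of Chgb and Pcsk2 were themselves compared between subregions, as a contrast in a fit of all 6 groups. For Chgb the CA1 difference exceeded the DG difference by 0.92 on the log2 scale (SE 0.155, limma adjusted p = 0.0134), and for Pcsk2 by 0.32 (SE 0.087, limma adjusted p = 0.0419). These were the 2 members that passed, where 2.75% of all genes did. With the split by many genes at 0 as a term, which separates the training groups in opposite directions in CA1 and DG, the contrasts were 1.17 for Chgb and 0.46 for Pcsk2 and neither passed (limma adjusted p = 0.999 each). Neither passed when trained replicate 1, 2 or 3 was left out, where the limma adjusted p ranged from 0.0543 to 0.0774 for Chgb and from 0.0954 to 0.168 for Pcsk2. Pcsk2 also did not pass without untrained replicate 2 (limma adjusted p = 0.0578) or 3 (0.173), with upper-quartile rescaling (0.0662), with a filter of 10 or more in each library (0.0584) or without robust estimation (0.0502). Between CA3 and DG no member passed (0.164% of all genes did), 4 had an unadjusted p under 0.05 (11.7% of genes), and Chgb had a difference of 0.81 (limma adjusted p = 0.0829). With the animal as a replicate block Chgb passed there, at 0.90 (limma adjusted p = 0.0147). It did not pass without trained replicate 1, 2 or 3 (limma adjusted p = 0.341, 0.245 and 0.181) or with the term for many genes at 0 (0.594). Leaving out untrained replicate 1, 2 or 3 leaves a lone untrained library in CA3, in DG or in both. The Chgb difference was then 0.87, 0.96 and 0.61. Without untrained replicate 1 the Scg3 difference was 0.65 for CA3 against DG and 0.52 for CA1 against DG. Between CA1 and CA3 no member passed either (0.0273% of all genes), and 1, Vgf, had an unadjusted p under 0.05, as did 6.71% of genes.

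The number of genes at 0 moved with Chgb. All 7 libraries with many genes at 0 had Chgb at 4689 or more, and these are trained in CA1 and CA3 and untrained in DG. Of the 9 libraries with fewer genes at 0, 8 had Chgb between 2923 and 4431, and the other was trained CA3 replicate 3, at 5432. With a term for this split in a fit of all 16 libraries, the log2 difference of Chgb in CA1 was 0.69 and the limma adjusted p 0.307, while that of Pcsk2 was 0.32 (limma adjusted p = 0.328). In that fit the term is estimated from trained CA3 alone, because within CA1 and within DG the split cannot be told apart from training. Differences that had not passed changed sign in that fit for Pcsk1 and Scg5 in CA1, for Scg3 in CA3 and for Cpe, Scg5, Chga and Vgf in DG. The 6 pan-neuronal markers moved with both genes in CA1. They summed to 42250 to 43960 in untrained and 48440 to 49270 in trained CA1, with 4 of 6 passing as higher and none at 0 in any library. In DG these sums were 49480 to 52670 and 50220 to 51030. Other markers moved in CA1 too. The 6 CA1 pyramidal markers had a median log2 difference of -0.94, with 0 of 6 above 0 and 2 passing as lower (sums of 3590 to 5709 in untrained and 1898 to 2352 in trained CA1). The 6 CA3 pyramidal markers summed to 1540 to 1660 in untrained and 2164 to 2323 in trained CA1 (4 passed as higher, 1 as lower), and the 6 leptomeningeal markers to 2077 to 2236 and 1099 to 1376 (2 passed as lower), with none at 0. The 5 endothelial markers summed to 588.9 to 600.0 and 679.1 to 700.3 (5 of 5 above 0, none passing), and the 10 dentate granule markers to 11750 to 14380 and 14030 to 14400 (9 of 10 above 0, 1 passing in each direction). The choroid plexus markers summed to 1019 to 1184 in untrained and 308.0 to 2416 in trained CA1, with 2 genes at 0 in a trained library. The oligodendrocyte markers summed to 16370 to 26070 and 15410 to 17140, and the astrocyte markers to 14140 to 14990 and 13990 to 14510. These ranges overlap. The part of any of these markers in the Chgb and Pcsk2 values was not tested.

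**Figure D4:**
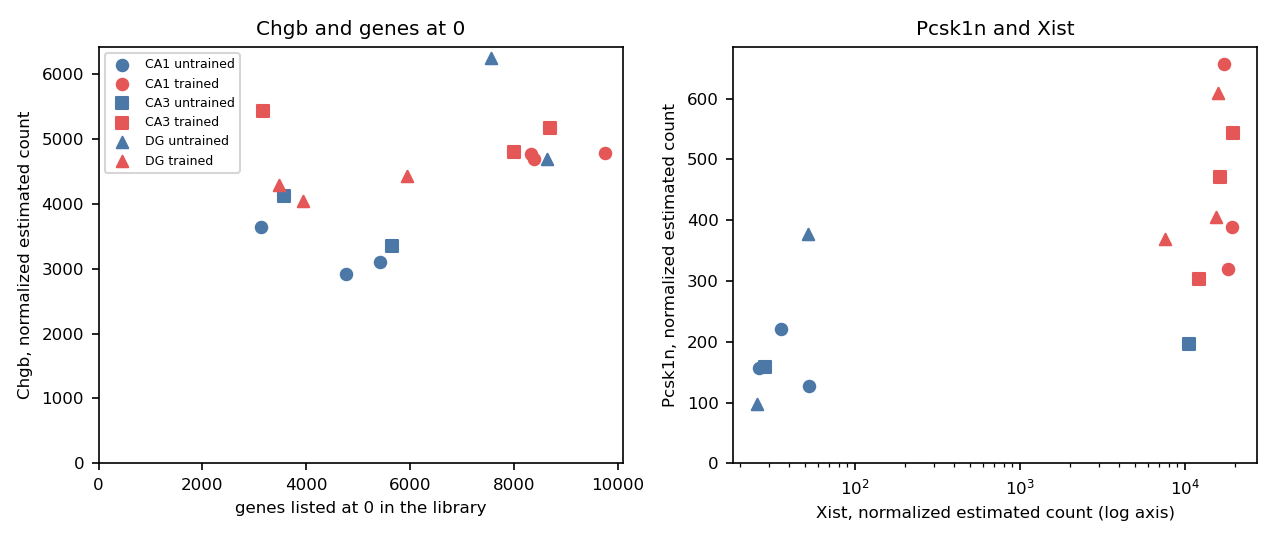
Left, Chgb against the number of genes listed at 0 in each library. Right, Pcsk1n against Xist on a log axis. Points are the 16 libraries, with the marker shape for the subregion and the colour for training. Trained CA3 replicate 3 has few genes at 0 and a Chgb of 5432, and CA3 untrained replicate 1 has a high Xist and a Pcsk1n of 196.8.

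Scg2 (secretogranin II), a precursor of secretoneurin, was lower in trained DG. Its values were 1940 and 1978 in untrained and 1664, 1464 and 1498 in trained DG. The trained DG libraries all lay below the untrained ones. The trained mean was 0.787 times the untrained mean, and Scg2 decreased by 0.35 on the log2 scale (SE 0.071, limma adjusted p = 0.0165). In CA3 Scg2 was at 1893 and 1595 against 1456, 1481 and 1454, without overlap, a log2 difference of -0.25 (limma adjusted p = 0.2), and -0.12 (0.799) without untrained replicate 1. In CA1 it was at 1679, 1757 and 1459 against 1564, 1419 and 1625, which overlap, with a log2 difference of -0.08 (limma adjusted p = 0.568). Over all subregions Scg2 decreased by 0.22 on the log2 scale (SE 0.052, limma adjusted p = 0.00936). It was the only member that passed as lower in that comparison. With the score of Xist and Y-linked genes as a covariate Scg2 was -0.33 and did not pass (limma adjusted p = 0.263). With GC content and length trends removed per library it did not pass either (-0.18, limma adjusted p = 0.101), and in that fit Pcsk2 did (0.19, 0.0422).

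Scg3 (secretogranin III), which links other granins to the vesicle membrane, was also lower in trained DG. It was at 1667 and 2003 in untrained and 1408, 1363 and 1367 in trained DG, so the groups did not overlap. The decrease was 0.41 on the log2 scale (SE 0.078, limma adjusted p = 0.0117). Scg3 values in CA1 and CA3 overlapped between the groups, with log2 differences of -0.07 and 0.04 (limma adjusted p = 0.571 and 0.883). In DG neither Scg2 nor Scg3 passed without trained replicate 2 (limma adjusted p = 0.108 and 0.0992) or without trained replicate 3 (0.0926 and 0.0588). With the term for many genes at 0 their DG log2 differences were -0.33 and -0.35 (limma adjusted p = 0.705 and 0.658), the term again resting on trained CA3. The 10 dentate granule markers moved in the same direction, at 15780 to 16000 in untrained and 12670 to 13720 in trained DG, with 2 of 10 passing as lower and none at 0. The 5 endothelial markers did so too, at 487.9 to 645.4 in untrained and 326.8 to 352.0 in trained DG, with 1 of 5 passing as lower and none at 0. The 6 oligodendrocyte markers summed to 15880 to 20350 in untrained and 14040 to 15210 in trained DG. The 8 GABAergic markers lay the other way, at 6219 to 6257 and 6436 to 6636. The part of these markers in the Scg2 and Scg3 values was not tested.

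Chga (chromogranin A) passed in no training comparison. In CA3 it was at 345.0 and 379.9 in untrained and 420.3, 489.2 and 489.4 in trained libraries, without overlap. The log2 difference there was 0.36 (SE 0.099, limma adjusted p = 0.12), with an adjusted p of 0.026 without trained replicate 1. In CA1 and DG the Chga values overlapped, and untrained DG ran from 364.8 to 553.0. The log2 differences were 0.09 and 0.06 (limma adjusted p = 0.724 and 0.855). In DG the sign of Chga turned with which untrained library was kept. The log2 difference was 0.36 without untrained replicate 3 (limma adjusted p = 0.0264) and -0.23 without untrained replicate 1 (0.204). In CA3 the difference was 0.24 (limma adjusted p = 0.335) with GC content and length trends removed per library.

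Vgf, the peptide precursor, passed in no training comparison, and its groups did not overlap in CA3. Its CA3 values were 377.0 and 370.2 in untrained and 447.7, 574.8 and 594.4 in trained libraries. The trained mean was 1.44 times the untrained mean, a log2 difference of 0.52 (SE 0.120, limma adjusted p = 0.0803). Without trained replicate 1, whose value was nearest to the untrained ones, it was 0.64 (limma adjusted p = 0.00405). With GC content and length trends removed per library, it was 0.24 (limma adjusted p = 0.464). In CA1 the values were 380.1, 370.6 and 538.7 against 471.1, 442.4 and 446.2, and in DG 518.7 and 469.4 against 568.5, 523.2 and 438.7. Both overlap, with log2 differences of 0.10 and 0.04 (limma adjusted p = 0.724 and 0.886). The CA1 difference was 0.27 without untrained replicate 3, the library at 538.7 (limma adjusted p = 0.0792), and 0.0018 without untrained replicate 2 (0.997). Whether the Vgf difference in CA3 differed from that in CA1 was tested, with -0.42 for CA1 against CA3 (95% interval -0.83 to -0.01, limma adjusted p = 0.727).

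The combined comparison rested on some replicate numbers more than others. These stand for animals only by the labels, and the libraries of untrained replicate 1 did not match in Xist. Without all libraries of trained replicate 2, or of untrained replicate 1, 0 of the 10 members passed with limma, and the adjusted p-values of Pcsk1n, Cpe and Scg2 were 0.0661, 0.0593 and 0.0819 in the first case and 0.105, 0.154 and 0.159 in the second. Pcsk1n alone also did not pass without trained replicate 1 (limma adjusted p = 0.0599) or untrained replicate 2 (0.0562). Without untrained replicate 3, 7 passed (of 1843 genes in all, against 1517), which adds Pcsk2, Chga, Chgb and Vgf. With the term for many genes at 0, Pcsk1n, Cpe and Scg2 all passed, at 1.24, 0.20 and -0.24 on the log2 scale (limma adjusted p = 0.0177, 0.00764 and 0.0025), and Scg3 passed as well, at -0.19 (0.0148).

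The other genes of the pathway were taken from 3 lists. Of 18 other processing enzymes, 15 could be tested, and none passed with limma in CA1, CA3 or DG, where 3, 4 and 0 had an unadjusted p under 0.05 (18.9%, 15.8% and 19.5% of all genes). Over all subregions, where 10.3% of all genes passed, 1 rose, Furin (0.20 on the log2 scale, limma adjusted p = 0.0372), a convertase of the constitutive pathway, and 1 fell, Cpd (-0.16, limma adjusted p = 0.00725), a carboxypeptidase of the trans-Golgi network. The median log2 difference of these 15 genes was -0.05 there. Furin no longer passed with trained replicate 1, 2 or 3 or untrained replicate 1 or 2 left out (limma adjusted p up to 0.206), nor Cpd without trained replicate 2 or untrained replicate 1 (up to 0.127).

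All 34 genes of dense-core vesicle sorting and release were tested. In CA1, 1 rose and 2 fell, where 5.23% of all genes passed. Syt7, a calcium sensor of vesicle release, rose by 0.17 on the log2 scale in CA1 (limma adjusted p = 0.0352). Cadps2, which primes vesicles, had a log2 difference of -0.45 (limma adjusted p = 0.00313), and the sorting receptor Sorcs3 one of -0.36 (limma adjusted p = 0.0326). In CA3, where 0.852% of all genes passed, 1 rose, the vesicle membrane protein Ptprn (0.45, limma adjusted p = 0.0497). In DG, where 3.39% did, 1 fell, Syt7 (-0.30, limma adjusted p = 0.0202). Its CA1 difference exceeded that in DG by 0.47 (limma adjusted p = 0.0474). Over all subregions 4 of the 34 rose, where 10.3% of all genes passed in either direction, namely Cadps (0.17, limma adjusted p = 0.0174), Ptprn (0.23, 0.0107), Rab3a (0.22, 0.00449) and Vps51 (0.23, 0.0167). Cadps2 in CA1 passed with each of the 6 animals left out in turn. Each of the others lost its call without at least 1 animal, from Rab3a, which did so only without untrained replicate 1 (limma adjusted p = 0.081), to Ptprn in CA3, which passed in 1 of 5 such fits, and the Syt7 contrast of CA1 with DG, which passed in 1 of 6.

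The cargo of the vesicles was the last list. Of 18 secreted precursors 12 were tested, and 1 passed, Sst (somatostatin), which rose in CA3, where 0.852% of all genes passed. Its CA3 mean was 341.9 ± 37.5 (SD, n = 3) with training and 191.8 ± 14.2 (SD, n = 2) without, a log2 difference of 0.82 (SE 0.113, limma adjusted p = 0.0101). It did not pass without trained replicate 2 or untrained replicate 1 or 2, where the limma adjusted p reached 0.0927. Sst is made by a class of GABAergic interneurons, and the 8 GABAergic markers, Sst among them, summed to 5950 to 6783 in trained and 5480 to 6213 in untrained CA3. The 6 choroid plexus markers summed to 236.8 to 325.4 in trained and 824.4 to 1131 in untrained CA3 (2 passed as lower, none at 0). The leptomeningeal markers summed to 1061 to 1789 in trained and 2186 to 2436 in untrained CA3 (0 of 6 above 0 on the log2 scale), and the pan-neuronal markers to 49230 to 54430 and 45270 to 48530 (5 of 6 above 0), with none of either passing. The CA3 pyramidal markers summed to 2417 to 2962 in trained and 1952 to 2562 in untrained CA3, which overlap. The dentate granule markers summed to 10870 to 15620 and 14720 to 18040, which overlap too. The part of these markers in the CA3 values of Sst, Ptprn or the members was not tested. Of the 61 tested genes of these 3 lists, 0 passed with limma between subregions, and 7, 6 and 9 had an unadjusted p under 0.05 between CA1 and CA3, CA1 and DG, and CA3 and DG (8.72%, 17.1% and 4.87% of all genes).

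Likeness between the members was described over all libraries. Over the 16 libraries, the 45 pairs of members had a median Pearson correlation of 0.323 on log2 values, with 16 pairs above 0.5 and 1 below -0.5, which is a description of libraries that share animals and library features. The closest pair was Pcsk2 with Chgb, at 0.921, and the pair below -0.5 was Cpe with Scg2, at -0.609. After group means were removed these were 0.731 and -0.446. The closest pairs were then Cpe with Scg5 (0.859), Pcsk1 with Cpe (0.794) and Pcsk1 with Scg5 (0.76), and those below -0.5 were Scg3 with Scg5 (-0.653) and Scg2 with Scg5 (-0.566). Pcsk1n was close to Chga, at 0.684, and to no other member above 0.6. Among all 14673 genes, the patterns most like Chgb were Pclo (0.965), a scaffold of the presynaptic active zone, and Pcsk2. Those most like Pcsk1n were the histone H4 genes Hist1h4d (0.97) and Hist1h4h (0.951), which have near-identical copies and are uncertain in their counts. The patterns most like Cpe were Snn (0.967) and Dkk3 (0.942). For the other members the highest value ranged from 0.852 (Chga with Snx7) to 0.935 (Pcsk2 with Ifngr2).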

How the data were processed

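Libraries were made with rRNA depletion, although the labels call the molecule polyA RNA. The authors aligned the reads with STAR to a mouse genome that the labels give as GRCm38, whereas the study's methods pair the name mm10 with a later build, quantified genes with Salmon and deposited, per library, a normalized signal per gene, that is, an estimated count after normalization. How the values were normalized is not given in the sources used here, and whole reads could not be recovered. DESeq2, which the authors used, needs raw counts. Here, limma 3.58.1 in R 4.3.3 was run on log2(value + 2). Variances were moderated robustly along a trend on the mean, and p-values were adjusted by the Benjamini-Hochberg method over all genes with a value of at least 10 in as many libraries as the smallest group holds. Differences on this scale understate changes of low genes. A gene passed at an adjusted p under 0.05. Libraries were treated as independent, although by the study's methods and the numbers in the labels an animal gave a library per subregion. Same-numbered libraries of different subregions had correlations of deviations from group means of -0.108 to 0.0921 over 14 pairs. Positions and lengths came from GENCODE on GRCm38 and promoters from RefSeq. The members, lists and tests were chosen with earlier results of these data known. The named genes were all members, list genes that passed a training comparison, sex-linked transcripts and the genes most alike each member. The fits were tested on simulated data. Alternatives were other scalings, pseudocounts, filters, blocks and covariates, and animals left out. Without CA3 untrained replicate 1, and the term for many genes at 0 within a subregion, were added after seeing the data.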

Additional observations from a re-analysis of the deposited data

Results flagged for a closer look

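Chga in untrained DG replicate 3, at 553.0, lay far above the other 6 untrained libraries, whose values were between 345.0 and 404.6, among 20 groups of values examined, where chance flags about 1 in 20. The training difference of Chgb differed between CA1 and DG by 0.92 on the log2 scale, and that of Pcsk2 by 0.32, both past the limma threshold in the test of the difference itself (adjusted p = 0.0134 and 0.0419). Neither passed without trained replicate 1, 2 or 3 or with the term for many genes at 0 (limma adjusted p = 0.999 each), nor did Pcsk2 without untrained replicate 2 or 3, with upper-quartile rescaling, with a filter of 10 or more in each library or without robust estimation.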

How the results depend on the processing

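Of 160 alternatives to the counts of members that passed, 127 kept the count within 1.5 times and 33 did not. The 127 include all alternatives to the comparisons between subregions and to the contrast of CA1 and CA3 effects. There the count was 0 in the main fit and in each alternative. All 33 changes lay in the remaining comparisons. With the term for many genes at 0, the count was 0 in CA1, 1 in CA3, 0 in DG and 0 for the contrast of CA1 and DG effects. In CA3 it was 1 with no filter, 2 with all 16 libraries in one fit and 5 with a replicate block on the number, although the numbers do not pair trained with untrained libraries (correlations of deviations from -0.18 to 0.119 over 7 pairs). With the sex-linked covariate the combined count was 0. For the CA1 and DG effects it was 1 with upper-quartile rescaling, under a filter of 10 or more in each library or without robust estimation, and 4 after a GC content and length correction. For the CA3 and DG effects it was 1 without robust estimation, 2 after that correction and 1 with the animal as a replicate block, which changed no other call between subregions. Leaving out each animal in turn, the counts ranged from 1 to 3 in CA1, 0 to 4 in CA3, 0 to 5 in DG, 0 to 7 over all subregions, 0 to 3 for the CA1 and DG effects and 0 to 2 for the CA3 and DG effects. The counts over all genes ranged from 339 to 905, 7 to 680, 28 to 1758, 438 to 1843, 24 to 521 and 0 to 72. Of 1600 alternatives to the members' log2 differences, 1 reversed a difference with an unadjusted p under 0.05, that of Cpe in DG, at -0.0097 with the term for many genes at 0. The cause of these changes was not tested. The depth of the libraries is unknown, so what it limits could not be stated.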
